A study of Capra hircus with 9 samples.

Results

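The miR-26 family of the goat mammary gland was examined here through the rows of the deposited count table whose names begin with chi-miR-26a or chi-miR-26b. These were 4 of the 1359 mature miRNAs listed, chi-miR-26a-5p, chi-miR-26a-3p, chi-miR-26b-5p and chi-miR-26b-3p, and all 4 were abundant enough to be tested. The small RNA libraries came from Laoshan dairy goats of 1 farm, all in the third parity and about 4 years old. The labels set the groups apart by stage only. Mammary tissue was taken in late lactation (LL, 240 days postpartum), in the dry period (DP, 300 days postpartum) and in late gestation (LG, 140 days after mating), from 3 goats per stage and 1 library per goat. Each goat gave tissue at a single stage after slaughter, so stages were compared between animals. The tissue was whole mammary gland, in which fewer cells of a type and less RNA per cell cannot be told apart.

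A miRNA hairpin yields mature strands from both of its arms, named 5p and 3p. Usually a single arm is kept in the silencing complex as the guide, and it finds its targets mainly through the seed near its 5′ end. miR-26a and miR-26b carry the same seed on their 5p arms and are therefore treated as a family. They are best known for holding back cell cycle entry, for repressing the histone methyltransferase EZH2, and for their place inside genes of the CTDSP phosphatases, which act on the retinoblastoma protein. The transcription factor MYC represses them. In mammary epithelial cells of goats, miR-26a and miR-26b have been studied for a role in the synthesis of milk triacylglycerol.

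In the RefSeq annotation of the goat genome ARS1.2, the hairpin gene MIR26A lay on chromosome 22 from 11298067 to 11298156, within the bounds of CTDSPL (11187226 to 11311455). MIR26B lay on chromosome 2 from 29393770 to 29393877, within the bounds of CTDSP1 (29390624 to 29397857). Whether these positions are intronic was not determined here, because exons were not part of the annotation used. The annotation listed 2 genes of the family in all. The bounds of CTDSP2, which holds a second copy of the miR-26a gene in other mammals, contained 0 annotated miRNA genes. The counts of none of the 4 miRNAs were equal to, or within 10% in every library of, those of another listed miRNA.

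The libraries held 13672653 to 34378995 counts. A miRNA with 0 counts could have had up to 0.0873 to 0.219 CPM (counts scaled to the size of the library), the level of 3 counts, and this limit covers counting error only. Levels below are CPM scaled between libraries by TMM (trimmed mean of M-values), which uses the bulk of the miRNAs to set the scale. A miRNA was called a DE-miRNA where its adjusted p-value was under 0.05 and its log2 fold change was past 1 in either direction. chi-miR-148a-3p took 8.81% to 10.8% of the counts of a DP library, 39.4% to 44.6% in LG and 48.4% to 59.4% in LL, and it enters the share of all counts given below. The median log2 fold change of the 696 tested miRNAs was 0.18 between DP and LG, 0.12 between DP and LL and 0.17 between LL and LG. With libraries scaled by their size alone these medians moved to −0.022, 0.49 and −0.42, so directions are given under TMM and exceptions are named.

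The 5p arms made up nearly all of the family. chi-miR-26a-5p took 85.1% to 90.1% of the miR-26 counts of a library and chi-miR-26b-5p 9.87% to 14.8%. By count, chi-miR-26a-5p ranked between 2 and 6 among the 1359 listed miRNAs in each library, with its best place in DP replicate 2. chi-miR-26b-5p ranked between 16 and 25. The 3p arms ranked between 352 and 537 and had 17 to 106 counts in a library. Counts of different miRNAs were compared as reads per mature strand, without a correction for length or ligation efficiency.

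chi-miR-26a-5p, the main guide strand of the family, was highest in DP. Its level was 34426 CPM, 39173 CPM and 43556 CPM in replicates 1 to 3 of LL. The libraries of DP had 61154 CPM, 137482 CPM and 53366 CPM, and those of LG 31823 CPM, 33157 CPM and 31238 CPM. Each DP library was above each library of both other stages, but DP replicate 2 stood far above the other DP libraries. The underlying counts in DP were 974286, 2991684 and 1223882. The stage means were 84001 ± 46479 CPM in DP, 39052 ± 4566 CPM in LL and 32072 ± 983 CPM in LG (SD, n = 3). The coefficient of variation was thus 55.3% in DP, 11.7% in LL and 3.07% in LG.

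chi-miR-26b-5p, the guide strand from the CTDSP1 locus, followed the same order at a lower level. Its level was 5932 CPM, 5214 CPM and 5940 CPM in LL. DP had 10660 CPM, 17172 CPM and 5843 CPM, and LG 3653 CPM, 3817 CPM and 3560 CPM. DP replicate 2 was again the highest library, and DP replicate 3 lay within the range of LL. The means were 11225 ± 5685 CPM in DP, 5696 ± 417 CPM in LL and 3677 ± 130 CPM in LG (SD, n = 3). All LL libraries were above all LG libraries. By library size alone, DP replicate 3 had 5975 CPM and lay above the 4419 to 4798 CPM of LL.

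**Figure D1:**
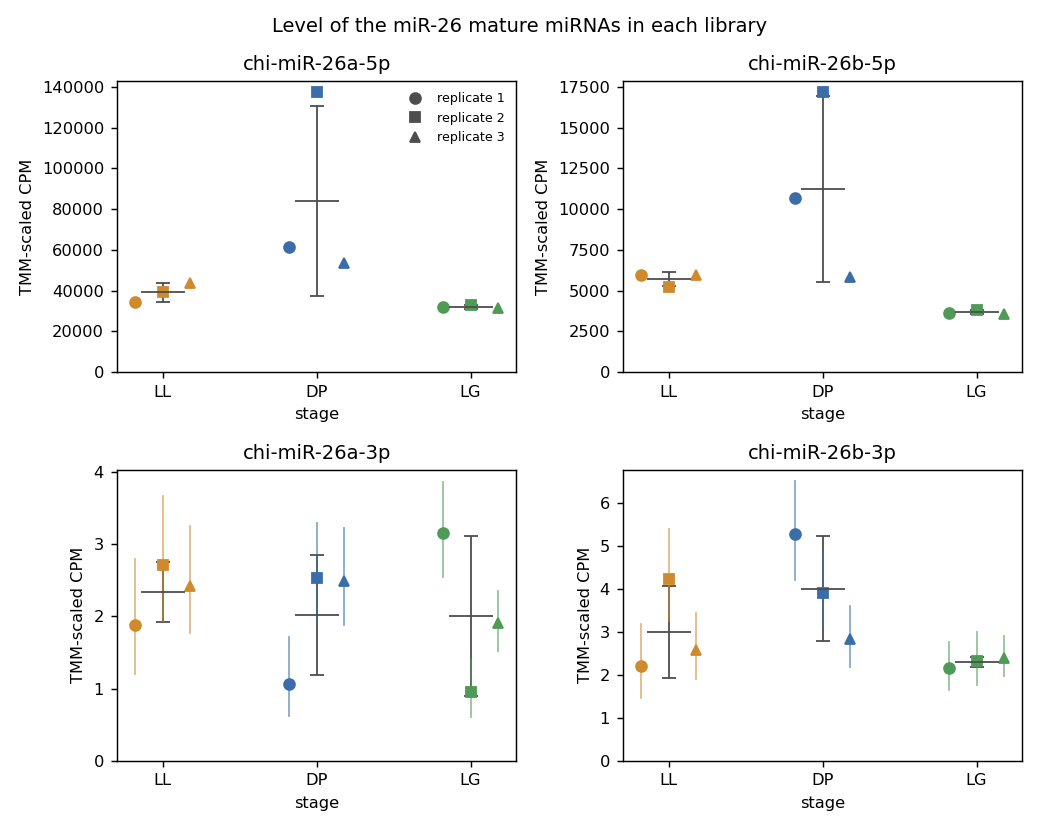
TMM-scaled CPM (linear axes from 0) of the 4 miR-26 mature miRNAs in LL, DP and LG, with a point per library, its replicate given by the shape, and grey bars for the mean ± SD of 3 goats. Coloured lines in the lower panels are 95% Poisson intervals of the counts. In the upper panels DP replicate 2 is the highest library for both 5p arms, at 137482 CPM and 17172 CPM, while the LG libraries lie close together.

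The comparison of DP with LG asks how the dry gland differs from that of late gestation. Both 5p arms were higher in DP. chi-miR-26a-5p rose 2.62-fold, which is 1.39 on the log2 scale (SE 0.33, edgeR adjusted p = 0.00769, quasi-likelihood test). chi-miR-26b-5p rose by 1.61 on the log2 scale (SE 0.33, edgeR adjusted p = 0.00351), or 3.05-fold. Of the 4 miR-26 miRNAs, 2 were thus DE-miRNAs higher in DP, where 21.6% of all tested miRNAs were (31.5% in either direction, and 34.8% with the limit on the p-value alone). The 95% intervals of the log2 fold changes ran from 0.67 to 2.11 and from 0.89 to 2.33.

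The size of these rises rested on DP replicate 2. Without that library, the log2 fold change of chi-miR-26a-5p was 0.69 (edgeR adjusted p = 0.0191) and that of chi-miR-26b-5p 0.98 (edgeR adjusted p = 0.0103). Neither reached the fold limit in that fit, and 0 of the 4 miRNAs were DE-miRNAs, with 26.0% of all tested miRNAs called. Without LG replicate 3, chi-miR-26a-5p was at 1.18 on the log2 scale and just missed the limit on the adjusted p-value (0.0501 from edgeR, and 0.00504 to 0.182 over all 19 alternatives).

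The comparison of DP with LL asks how the dry gland differs from that of late lactation. chi-miR-26a-5p rose 2.15-fold, which is 1.11 on the log2 scale (SE 0.32, edgeR adjusted p = 0.0260). For chi-miR-26b-5p the log2 fold change was 0.98 (SE 0.32, edgeR adjusted p = 0.0420), which passed the limit on the p-value but stayed just under that on the fold change. The count was therefore 1 of 4 higher in DP, against 15.1% of all tested miRNAs (26.7% in either direction, and 30.2% with the limit on the p-value alone). The 95% intervals ran from 0.39 to 1.82 for chi-miR-26a-5p and from 0.27 to 1.69 for chi-miR-26b-5p. The log2 ratio of both strands within a library differed by 0.13 between DP and LL. An exact two-sided permutation test of this difference gave p = 0.60, where 0.10 is the smallest p possible. The difference in call between both strands was thus not shown to be a difference in size.

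These calls moved with single libraries and with the processing. chi-miR-26a-5p fell just under the fold limit with limma-voom (0.98), with chi-miR-148a-3p excluded before TMM (0.98), with at least 10 counts in every library (0.97) and in a fit of these 2 stages alone (0.99, edgeR adjusted p = 0.0828). The fold change of chi-miR-26a-5p was 0.60 on the log2 scale without DP replicate 2 (edgeR adjusted p = 0.0353). Its adjusted p-value from edgeR rose to 0.0734, 0.0795 and 0.0562 without LL replicate 1, 2 or 3, at log2 fold changes of 1.10, 1.09 and 1.15. For chi-miR-26b-5p the log2 fold change was 1.26 without DP replicate 3 (edgeR adjusted p = 0.00569), which made it a DE-miRNA, and 0.53 without DP replicate 2. Its adjusted p-value missed the limit with limma-voom (0.0821), and in edgeR with upper quartile scaling (0.0514) and the 2 stages alone (0.118). It passed with DESeq2 (0.0305), and its range was 0.00569 to 0.382 over all 19 alternatives.

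Between LL and LG no miR-26 miRNA passed the test. The value of chi-miR-26a-5p was 0.28 on the log2 scale (SE 0.32, edgeR adjusted p = 0.618) and a 95% interval from −0.42 to 0.99. chi-miR-26b-5p had 0.63 (SE 0.32, edgeR adjusted p = 0.201), with an interval from −0.074 to 1.34. The libraries of LL and LG did not overlap for either 5p arm, which was also the case for 48.4% of all tested miRNAs (31.0% with LL higher). The number of DE-miRNAs was 0 of 4 with edgeR, where 12.8% of all tested miRNAs were called (14.7% with the limit on the p-value alone). It was also 0 with DESeq2 and with limma-voom, where 17.7% and 14.4% of all tested miRNAs were called. The unadjusted p of chi-miR-26b-5p was 0.0743 (edgeR). In a fit of these 2 stages alone, its SE fell to 0.14, at a log2 fold change of 0.41 (edgeR adjusted p = 0.0585). That fit called 0 of the 4 miRNAs, against 21.1% of all tested. In the order of levels DP, LL and LG, the neighbours LL and LG were thus not told apart by the test, and with libraries scaled by their size alone the log2 fold change of chi-miR-26a-5p turned to −0.30, where the median of all tested miRNAs was −0.42. That of chi-miR-26b-5p fell to 0.042, and its libraries then overlapped, with 4419 to 4798 CPM in LL and 4186 to 4570 CPM in LG.

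**Figure D2:**
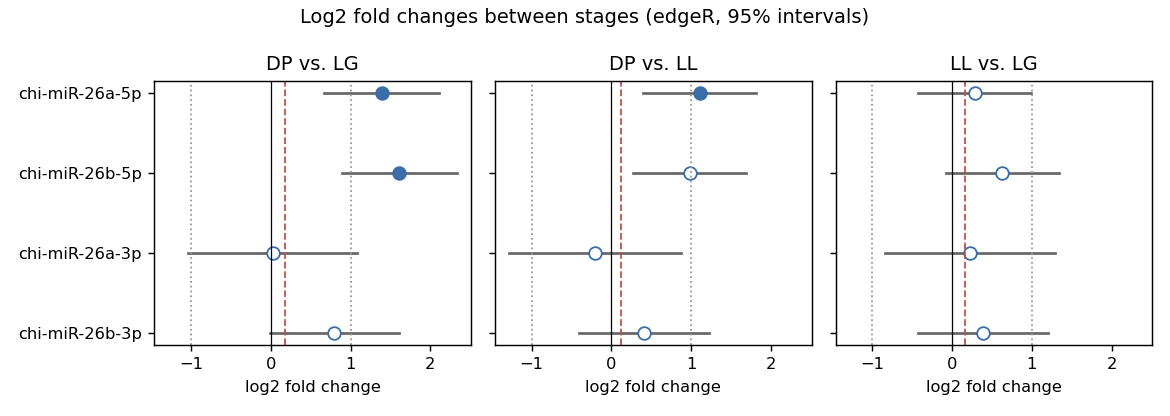
Log2 fold changes (x axis) of the 4 miR-26 miRNAs in each comparison of stages, with 95% intervals from edgeR. Filled points are DE-miRNAs, dotted lines mark the limit of 1 in both directions, and the red dashed line is the median of the 696 tested miRNAs. The filled points are both 5p arms in DP vs. LG (1.39 and 1.61) and chi-miR-26a-5p in DP vs. LL (1.11).

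No 3p arm, the passenger strand, passed the test in any comparison. Over the 9 libraries, Pearson's r of log2 CPM with the own 5p arm was 0.102 for chi-miR-26a-3p and 0.701 for chi-miR-26b-3p, given as a description of libraries that share stage and scaling. chi-miR-26a-3p had 24, 41 and 45 counts in LL, 17, 55 and 57 in DP and 92, 24 and 84 in LG. The lowest of these counts has a 95% Poisson interval from 9.90 to 27.2 and the highest one from 74.2 to 113. In TMM-scaled CPM the stages overlapped fully, with 1.88 to 2.71 in LL, 1.07 to 2.53 in DP and 0.948 to 3.16 in LG. The log2 fold change was 0.024 for DP against LG (edgeR adjusted p = 0.968), −0.20 for DP against LL (edgeR adjusted p = 0.776) and 0.22 for LL against LG (edgeR adjusted p = 0.824). The intervals were wide, from −1.04 to 1.09 for DP vs. LG, and the sign of this value changed in 14 of 19 alternatives.

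chi-miR-26b-3p, the passenger strand of miR-26b, had 28, 64 and 48 counts in LL, 84, 85 and 65 in DP and 63, 59 and 106 in LG. Its TMM-scaled level was 2.20 to 4.23 CPM in LL, 2.83 to 5.27 CPM in DP and 2.16 to 2.40 CPM in LG. The DP libraries did not overlap with those of LG, as in 27.7% of all tested miRNAs that were higher in each DP library. By library size alone they overlapped, with 2.90 CPM in DP replicate 3 and 3.08 CPM in LG replicate 3. The log2 fold change for DP vs. LG was 0.80 (SE 0.37, edgeR adjusted p = 0.117) with a 95% interval from −0.013 to 1.60. The sign was that of its 5p arm in all 3 comparisons. The value was 0.41 against LL (edgeR adjusted p = 0.432), and LL vs. LG gave 0.39 (edgeR adjusted p = 0.532).

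Ratios within a library do not depend on how libraries are scaled to each other. chi-miR-26a-5p had 5.80, 7.51 and 7.33 times the counts of chi-miR-26b-5p in LL, 5.74, 8.01 and 9.13 times in DP and 8.69 to 8.78 times in LG. The LG libraries were almost equal, whereas those of DP covered the range of both other stages. The mean log2 ratio was 2.77 ± 0.21 in LL, 2.90 ± 0.35 in DP and 3.13 ± 0.0076 in LG (SD, n = 3). No difference between the stages was found (exact permutation test of F over 280 splits, one-sided, p = 0.282, and 0.293 adjusted over 3 ratios). All LL libraries lay below all LG libraries, with a difference of −0.35 on the log2 scale (exact two-sided permutation test, p = 0.10, the smallest p that 3 against 3 libraries allow, and 0.30 adjusted over 9 pairs).

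The arm ratio of miR-26a spread more in DP and LG than in LL. In DP the 5p arm had 55674, 53904 and 21285 times the counts of the 3p arm, in LL 17907, 14289 and 17736 times, and in LG 10030, 34276 and 16317 times. Each DP library was above each LL library, but 1 LG library lay within the range of DP. The mean log2 ratio was 15.3 ± 0.79 in DP, 14.0 ± 0.18 in LL and 14.1 ± 0.89 in LG (SD, n = 3), with p = 0.0893 in the exact permutation test over the stages and 0.268 after adjustment. These ratios divide by 17 to 92 counts and carry that counting error.

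For miR-26b the 5p arm had 1224 to 2653 times the counts of the 3p arm in LL, 2010 to 4370 times in DP and 1475 to 1677 times in LG. The mean log2 ratio was 10.9 ± 0.59 in LL, 11.4 ± 0.64 in DP and 10.6 ± 0.096 in LG (SD, n = 3). All DP libraries were above all LG libraries, but the exact permutation test found no difference between the stages (p = 0.293, and 0.293 after adjustment). No ratio passed the threshold, and the smallest p that the 280 splits allow is 0.00357.

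**Figure D3:**
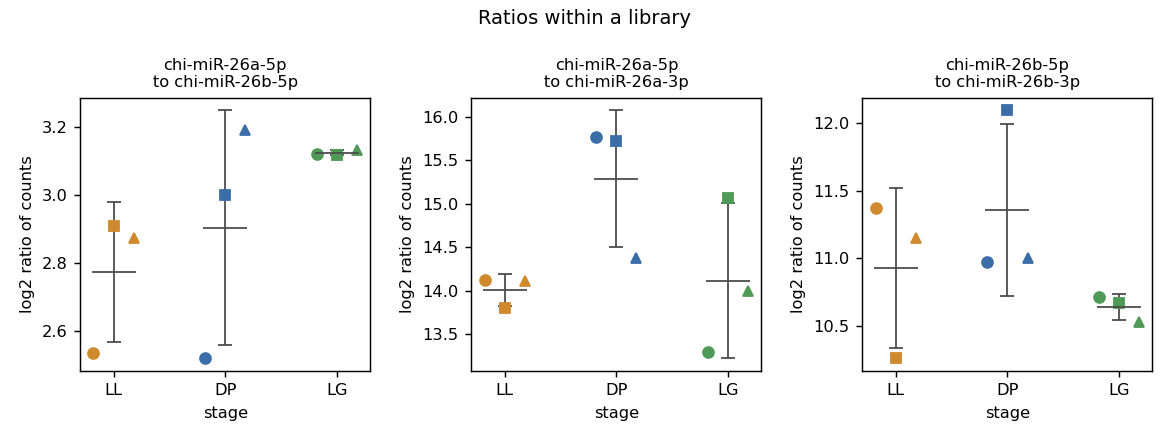
Log2 ratios of counts (y axes, each with its own range) in the libraries of LL, DP and LG, with replicates 1, 2 and 3 as circles, squares and triangles and grey bars for the mean ± SD of 3 goats. The ratio of chi-miR-26a-5p to chi-miR-26b-5p is nearly constant in LG, between 8.69 and 8.78 before the logarithm, and spreads in DP from 5.74 to 9.13.

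As a share of all deposited counts, the 4 miRNAs together took 9.60% ± 4.30 in DP, 3.61% ± 0.549 in LL and 4.31% ± 0.214 in LG (SD, n = 3). The stages differed in this share (exact permutation test of F over 280 splits, one-sided, p = 0.00714). The DP mean exceeded that of LG by 5.29 percentage points, and by 2.90 without DP replicate 2 (exact permutation test, p = 0.00714). A share also depends on the other miRNAs in the total, and chi-miR-148a-3p, the miRNA that dominates the lactating gland, was lowest in DP. Its part in the higher share of miR-26 in DP was not tested. When the totals excluded chi-miR-148a-3p, the family took 10.6% ± 4.72 in DP, 7.76% ± 0.302 in LL and 7.50% ± 0.388 in LG (SD, n = 3). The share then ranged from 6.64% to 15.8% in DP, which included the ranges of LL and LG. A difference between the stages was then not found (exact permutation test, p = 0.257). Scaled by this remaining total, the log2 fold changes of chi-miR-26a-5p were 0.48 for DP vs. LG (edgeR adjusted p = 0.182) and 0.47 for DP vs. LL (edgeR adjusted p = 0.214). Those of chi-miR-26b-5p were 0.72 (edgeR adjusted p = 0.0800) and 0.36 (edgeR adjusted p = 0.382). With this scaling the medians of all tested miRNAs were −0.67 and −0.48, and 6.75% and 4.6% of them were called higher in DP. The rise of the 5p arms in DP therefore kept its sign in all 19 alternatives of each comparison, while its size depended on the scale.

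**Figure D4:**
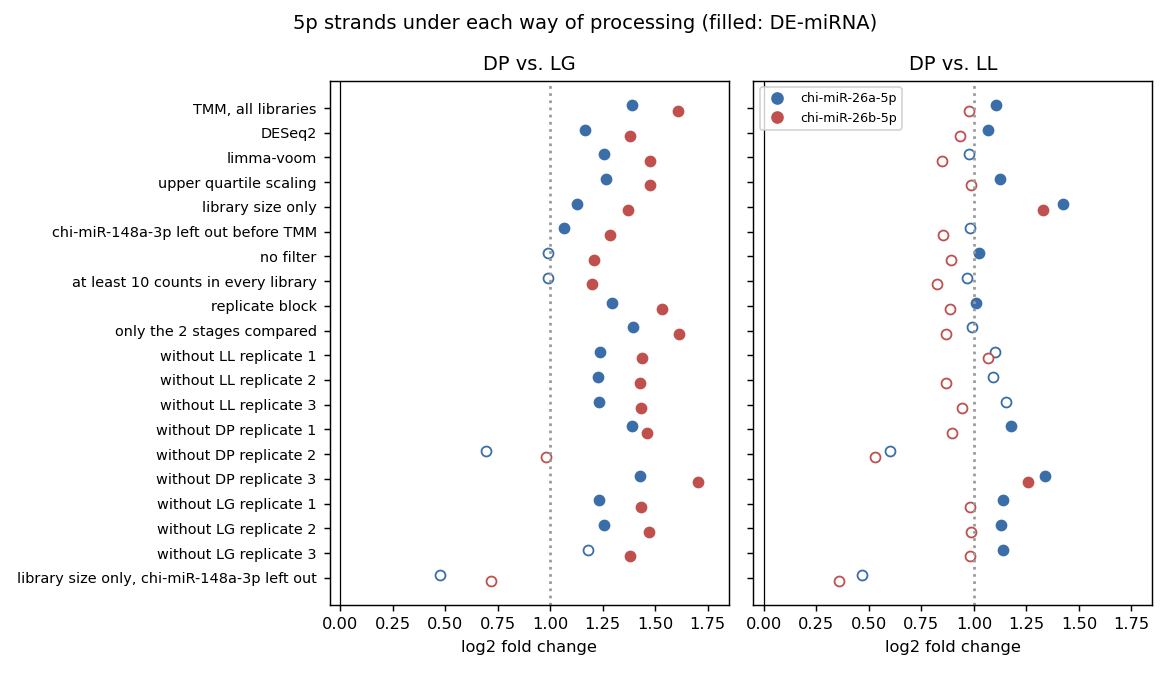
Log2 fold changes (x axis) of chi-miR-26a-5p (blue) and chi-miR-26b-5p (red) in DP vs. LG and DP vs. LL under each way of processing (y axis), with filled points for DE-miRNAs and a dotted line at the limit of 1. All points lie above 0, and the lowest are those without DP replicate 2 and those scaled by library size with chi-miR-148a-3p left out.

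The miRNAs with a profile most like that of chi-miR-26a-5p were sought among the 303 other tested miRNAs whose mean level reached 10 CPM, by Pearson's r of log2 CPM over the 9 libraries. As the libraries share their stage and scaling, r is a description only. The closest were chi-miR-16a-5p (r = 0.942), chi-miR-26b-5p (r = 0.942), chi-miR-99a-5p (r = 0.936), the predicted miRNA NC_030822.1_19803 (r = 0.931) and chi-miR-425-5p (r = 0.927). Without DP replicate 2 these were 0.917, 0.879, 0.915, 0.759 and 0.883. chi-miR-26b-5p was most like chi-miR-425-5p (r = 0.976), followed by chi-miR-26a-5p and the predicted NC_030822.1_19803 (r = 0.938), NC_030817.1_14238 (r = 0.914) and NC_030828.1_27534 (r = 0.910). With libraries scaled by their size alone, r with NC_030817.1_14238 was 0.558.

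The values of these miRNAs are given as a description, since they were chosen for their likeness over the same libraries. chi-miR-16a-5p, a miRNA of the miR-15/16 family that targets cyclins, had 3832 CPM, 6220 CPM and 3556 CPM in DP, 1752 to 2045 CPM in LL and 1360 to 1834 CPM in LG. Its log2 fold change was 1.49 in DP vs. LG and 1.28 in DP vs. LL. chi-miR-425-5p had 101 CPM, 133 CPM and 73.7 CPM in DP, 58.7 to 67.0 CPM in LL and 44.7 to 52.1 CPM in LG, at a log2 fold change of 1.09 in DP vs. LG. The level of chi-miR-99a-5p in DP replicate 2 was 185359 CPM, against 104851 CPM and 92098 CPM in the other DP libraries. A peak in DP replicate 2, as in chi-miR-26a-5p, is what the choice by r favours.

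**Figure D5:**
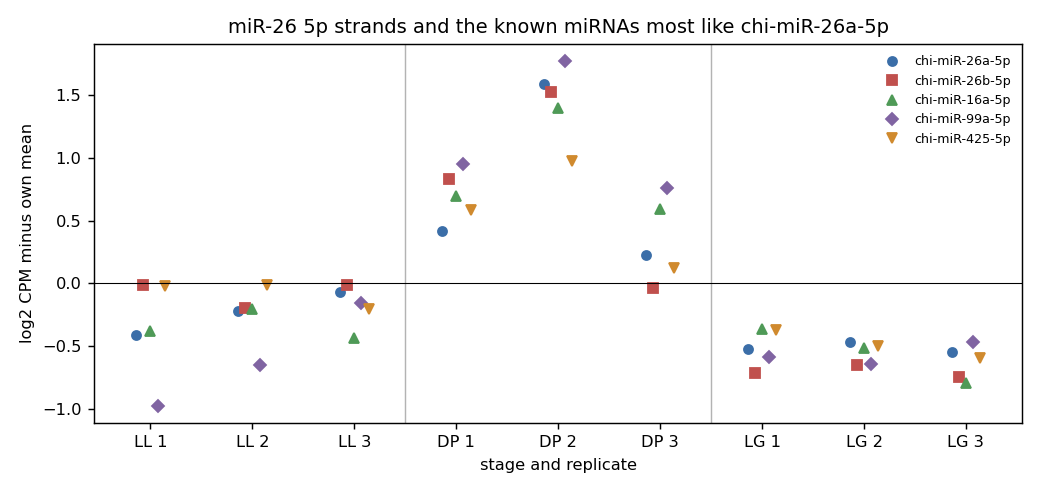
Log2 TMM-scaled CPM minus the miRNA's own mean over the 9 libraries (y axis) for both miR-26 5p arms and the known miRNAs most like chi-miR-26a-5p, by stage and replicate (x axis). All 5 miRNAs have their highest value in DP replicate 2 and lie below their mean in LG.

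Other miRNAs under the control of MYC were looked at as a group, since MYC represses miR-26. These lists and those below were chosen with earlier results of these data known, so their counts are a description only. Related miRNAs within a list, such as those of let-7 or miR-29, are not independent. The repressed list also holds chi-miR-16a-5p, named above for its likeness to chi-miR-26a-5p, and chi-miR-150, counted again below as an immune marker. Of 21 miRNAs that MYC is known to repress, all were tested, and 11 were DE-miRNAs higher in DP than in LG and 1 lower. The background was 21.6% higher and 9.91% lower, and the median log2 fold change of the list was 1.10 beside 0.18 for all. Among its 4 most abundant members, chi-let-7a-5p (1.15, edgeR adjusted p = 0.00181) and chi-let-7c-5p (1.60, edgeR adjusted p = 0.00240) passed, whereas chi-let-7f-5p (0.71) and chi-let-7g-5p (0.85) stayed under the limit on the fold change. The 1 lower was chi-miR-30e-5p, at −1.07 (edgeR adjusted p = 0.0235). With the other scalings of edgeR the number higher was 8, where 16.2% to 18.7% of all tested miRNAs were. Without DP replicate 2 it was 9 of 21, against 16.2%, with none lower. In DP vs. LL, 10 were higher and 1 lower (median 1.10), against 15.1% and 11.6%. This was 14 and 0 by library size alone, against 23.7% and 8.48%, and 12 and 1 without DP replicate 2, against 14.7% and 10.2%. In LL vs. LG 3 were higher and 0 lower (median 0.10), against 8.91% and 3.88%, beside a median of 0.17 for all. By library size alone 2 were higher and 2 lower, against 4.31% and 12.9%, and the median was −0.47 beside −0.42 for all, and with upper quartile scaling −0.038 beside 0.032.

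Of 9 miRNAs that MYC is known to induce, from the miR-17-92 and miR-106b-25 clusters, 3 were DE-miRNAs lower in DP than in LG and 0 higher. Of all tested miRNAs, 9.91% were lower and 21.6% higher. The median log2 fold change was −0.60, beside 0.18 for all. The 3 were chi-miR-19a (−1.38), chi-miR-19b-3p (−1.24) and chi-miR-92a-3p (−1.02, edgeR adjusted p = 0.00375), while chi-miR-25-3p had −0.078, chi-miR-20a-5p −0.39 and chi-miR-93-5p −0.15 without passing the test. In DP vs. LL 0 of the 9 were DE-miRNAs with edgeR, against 15.1% higher and 11.6% lower over all, and the median was 0.37. By library size alone 2 were higher, against 23.7% of all, with a median of 0.73 beside 0.49. Without DP replicate 2, 1 was higher, against 14.7%. In LL vs. LG 1 was lower, chi-miR-18a-5p at −1.14, against 3.88% of all, and the median was −0.77, beside 0.17 for all. By library size alone 8 were lower, against 12.9% of all, with a median of −1.34 beside −0.42. With upper quartile scaling 3 were lower, against 5.75%, and with chi-miR-148a-3p excluded before TMM 4, against 6.18%. MYC itself was not measured in these libraries.

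Of 12 miRNAs with known roles in lipid metabolism, 11 were tested. In DP vs. LG, 2 were higher and 2 lower, with a median log2 fold change of −0.081, against 21.6% and 9.91% of all tested miRNAs and a median of 0.18. In DP vs. LL, 2 were higher and 6 lower, with a median of −1.57, against 15.1% and 11.6% of all tested miRNAs and a median of 0.12. With libraries scaled by their size alone, 4 were higher and 6 lower, against 23.7% and 8.48%. Its lower members included chi-miR-148a-3p (−2.87, edgeR adjusted p = 2.49e-05) and chi-miR-103-3p (−1.57, edgeR adjusted p = 0.000386), a regulator of insulin signalling. chi-miR-143-3p (−0.43) and chi-miR-27b-3p (0.76), which acts on adipocyte differentiation, did not pass. In LL vs. LG 2 were higher and 0 lower (median 0.66, against 8.91%, 3.88% and a median of 0.17). By library size alone 1 was higher and 1 lower, against 4.31% and 12.9%, with a median of 0.060 beside −0.42 for all.

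Marker miRNAs of cell types also moved between the stages. The shares of all tested miRNAs called higher and lower, beside which these counts stand, were 21.6% and 9.91% in DP vs. LG and 15.1% and 11.6% in DP vs. LL. The 5 markers of epithelium in the table, the miR-200 family, summed to 13064 to 20811 CPM in DP, 34893 to 42110 CPM in LL and 34218 to 37559 CPM in LG, and 3 of 5 were lower in DP than in LG and 5 of 5 lower in DP than in LL. By library size alone these counts were 5 and 0, against 12.2% and 8.48% of all called lower, and the median of the 5 in DP vs. LL was −0.75 beside 0.49 for all. Without DP replicate 2 the counts were 5 and 3, against 9.78% and 10.2%. Of the 6 stromal markers, 4 were higher in DP in both comparisons, strands of miR-199a and miR-214. The other members, chi-miR-143-3p and chi-miR-145-5p, had log2 fold changes of 0.14 and 0.40 in DP vs. LG and did not pass. In DP vs. LL they had −0.43 and −0.71 and did not pass either. With chi-miR-148a-3p excluded before TMM, 3 of the 6 stromal markers were higher in DP vs. LL, against 11.6% of all. The summed level of this list, set mostly by chi-miR-143-3p, was 47563 to 152684 CPM in DP, 77807 to 125765 CPM in LL and 57452 to 65618 CPM in LG. All 3 immune markers were higher in DP than in LG, and 1 was higher in DP than in LL. By library size alone 2 immune markers were higher in DP than in LL, against 23.7% of all. In LL vs. LG 2 immune markers were higher in LL, against 8.91%, and 1 by library size alone, against 4.31%. Their sum was 767 to 1935 CPM in DP, 581 to 740 CPM in LL and 243 to 360 CPM in LG.

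DP replicate 2 was also the highest library for the summed markers of blood (1284 CPM, against 122 CPM and 576 CPM in the other DP libraries), of immune cells (1935 CPM, against 1410 CPM and 767 CPM) and of endothelium (31975 CPM, against 19028 CPM and 28313 CPM). Of the 4 blood markers in the table, of which 3 were tested, 1 was higher in DP than in LG, chi-miR-451-5p, which marks red cells. Of the 2 endothelial ones, chi-miR-126-5p was called higher in DP than in LG under TMM. With upper quartile scaling, by library size alone or with chi-miR-148a-3p excluded before TMM, 0 endothelial markers were called. The shares of all tested miRNAs called higher in these fits were 18.7%, 16.7% and 16.2%. Without DP replicate 2, 0 blood, 0 endothelial and 2 of 3 immune markers were called higher in DP vs. LG (edgeR), against 16.2% of all tested miRNAs. By stage, blood markers had 364 to 551 CPM in LL and 87.1 to 168 CPM in LG, and endothelial ones 15853 to 22980 CPM in LL and 14716 to 16363 CPM in LG. Muscle markers were highest in DP replicate 3 (3444 CPM, against 971 CPM and 1070 CPM in DP, 720 to 932 CPM in LL and 419 to 530 CPM in LG). Of the 6, of which 5 were tested, 2 were higher in DP than in LG and 1 in DP than in LL, and 1, chi-miR-208b, had 0 counts in every library. In DP vs. LL 2 muscle markers were higher without DP replicate 2, against 14.7% of all, and 2 by library size alone, against 23.7%. The part of these cell types in the level of miR-26 was not tested.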

How the data were processed

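Small RNA libraries of goat mammary tissue in LL, DP and LG were used, and stages were read from the sample labels. Trimmomatic was used by the authors for trimming, and miRDeep2 for mapping to ARS1.2 and for counting reads per mature miRNA, and the authors deposited the raw counts. The submitters' processing notes also name FastQC 0.11.9, cutadapt 4.2 and Bowtie 1.1.1. The deposited values of LL replicate 3 were treated like expected counts, since 2 of them were not whole, and these were rounded. The authors' FPKM filter and RUVSeq were not used here.

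The 696 of 1359 miRNAs that reached 0.5 CPM in 3 or more libraries were tested with edgeR 4.0.16 (TMM, glmQLFit, glmQLFTest) in R 4.3.3, in a single model of the 9 libraries with stage as its term and Benjamini-Hochberg adjustment. The SE is the absolute log2 fold change divided by the square root of F. The code was tested on simulated data. Ratios had 0.5 added to each count and, like the share, were tested by exact permutation in Python 3.11.15. Profiles were compared on log2 CPM with a prior count of 2. Other scalings and filters, fits of 2 stages only, a replicate block, the omission of each library in turn, limma-voom (limma 3.58.1) and DESeq2 1.42.0 served as alternatives. Library size without chi-miR-148a-3p, and the lists and profiles without DP replicate 2 or, for the lists, under other scalings, were added after seeing the data. Named miRNAs are the 4 members, the 5 most like each 5p arm, the 4 most abundant tested ones of the MYC and lipid lists, and others singled out after their values were seen. The members and lists were chosen with earlier results of these data known. Markers miR-486-5p, miR-142-3p, miR-142-5p, miR-205 and miR-203-3p were not analysed here. Mature sequences were not used here.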

Additional observations from a re-analysis of the deposited data

How the results depend on the processing

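Of the alternatives added or planned, library size with chi-miR-148a-3p left out was chosen after seeing the data. For DP vs. LG, the log2 fold change of chi-miR-26a-5p was 0.99 without a filter, 0.99 with at least 10 counts in every library and 0.48 with that added scaling, and 1, 1 and 0 miRNAs were then called, where 7.98%, 19.0% and 6.75% of all tested miRNAs were called higher. The added scaling gave 0.72 for chi-miR-26b-5p and −0.048 for chi-miR-26b-3p. chi-miR-26a-3p turned to −0.18 with DESeq2, −0.096 with upper quartile scaling, −0.22 by library size, −0.27 with chi-miR-148a-3p left out before TMM, −0.35 without a filter, −0.30 with at least 10 counts and −0.87 with the added scaling. For DP vs. LL, chi-miR-26a-5p had 0.98 with limma-voom, 0.98 with chi-miR-148a-3p left out before TMM and 0.97 with at least 10 counts. It had 0.99 with only the 2 stages compared and 0.47 with the added scaling. Each left 0 called, where, in this order, 12.1%, 11.6%, 14.7%, 9.65% and 4.6% of all tested miRNAs were called higher. By library size, chi-miR-26b-5p had 1.33 and 2 were called, against 23.7% of all called higher and a median of 0.49, with chi-miR-26a-3p at 0.11, and the added scaling gave −0.17 for chi-miR-26b-3p. For LL vs. LG, library size gave −0.33 for chi-miR-26a-3p, −0.30 for chi-miR-26a-5p and −0.16 for chi-miR-26b-3p. Without a filter, chi-miR-26a-3p had −0.10 and chi-miR-26a-5p −0.033, and chi-miR-26a-3p had −0.014 with at least 10 counts and −0.035 with the added scaling. The DP share exceeded that of LG by 5.29 percentage points, and by 3.12 when the total excluded chi-miR-148a-3p. The cause of these shifts was not tested.

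With each library left out in turn, the log2 fold changes for DP vs. LG ranged from 0.69 to 1.43 (chi-miR-26a-5p), 0.98 to 1.71 (chi-miR-26b-5p), −0.43 to 0.42 (chi-miR-26a-3p) and 0.37 to 0.75 (chi-miR-26b-3p), with 0 to 2 called. For DP vs. LL they ranged from 0.60 to 1.34, 0.53 to 1.26, −0.38 to −0.019 and 0.049 to 0.69, with 0 to 2 called. For LL vs. LG they ranged from 0.045 to 0.21, 0.37 to 0.57, −0.30 to 0.53 and −0.076 to 0.35, with 0 called. Of all tested miRNAs, 22.2% to 36.1% were called in these fits for DP vs. LG. The shares were 18.0% to 27.9% for DP vs. LL and 4.79% to 18.2% for LL vs. LG. The share difference ranged from 2.90 to 7.07 percentage points. Ratio differences between DP and LG ranged from −0.36 to −0.029 (chi-miR-26a-5p to chi-miR-26b-5p), 0.76 to 1.64 (arms of miR-26a) and 0.35 to 0.91 (arms of miR-26b). Deviations of libraries with the same replicate number correlated at −0.10 to 0.21 over 9 pairs. Those with different numbers correlated at −0.23 to 0.15 over 18 pairs. Whether libraries with the same number share more than the number was not tested. With the replicate block, chi-miR-26a-5p had 1.30 for DP vs. LG and 1.01 for DP vs. LL, chi-miR-26b-5p 1.53 and 0.89, and no call among the 4 miRNAs changed. The block gave 222, 170 and 88 DE-miRNAs for DP vs. LG, DP vs. LL and LL vs. LG, against 219, 186 and 89 without it. At 17 to 106 counts, depth limits what can be said of the 3p arms.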
